A study of Mus musculus with 8 samples.

Results

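The C/EBP (CCAAT/enhancer binding protein) transcription factor genes are described here by the ATAC-seq peak summits listed around them in mouse brown adipose tissue (BAT). The 7 genes are Cebpa, Cebpb, Cebpd, Cebpe, Cebpg, Cebpz and Ddit3. Their loci were taken as the gene body plus 50 kb on each side of a transcription start site (TSS), a rule that used position only and no measured value. Of the 32173 peak summits in the deposited ATAC-seq list, 65 (0.202%) lay in these loci, and none was counted for more than 1 of the genes.

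ATAC-seq uses the Tn5 transposase to insert adapters into DNA free of nucleosomes, so that reads gather in open chromatin. Nuclei came from BAT of mice on chow diet, 12 weeks old and kept for 4 hr at 4°C. The WT mice were Dot1l f/f littermates. The Dot1L-BKO mice carried floxed Dot1l and a Cre driven by the Ucp1 promoter and so lacked Dot1l, an H3K79 methyltransferase, in Ucp1+ cells. Other cell types of BAT in these mice still have the gene. There were 2 libraries per genotype, each from a separate mouse, and RNA-seq libraries of the same genotypes, made from pooled RNA, were not analysed here. The deposited values are 1 list for the 4 ATAC-seq libraries together, giving each peak's summit and the −log10 of its MACS2 q-value, called the score here. Since no value belongs to a single library, read depth is unknown, no replicate error can be given and the genotypes cannot be compared, so every value below is a description of that list. The list is named for the WT libraries against the Dot1L-BKO libraries, and which of them MACS2 took as treatment and which as control is not stated in the sources used here. The study's methods also describe peaks called in each sample and joined into a union of regions, without saying whether this list is that union. If 1 genotype was the control, a summit and its score would measure an excess over that genotype rather than how open the chromatin was, and a gene without a summit could still have open chromatin. Scores, ranks and missing summits below are therefore facts of the list and not levels of openness.

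C/EBP proteins bind DNA as dimers through a basic region and a leucine zipper. In fat cell precursors, C/EBPβ and C/EBPδ are induced early and activate the genes of C/EBPα and PPARγ, which then drive the genes of the mature adipocyte. C/EBPβ also partners with PRDM16 in brown fat cells, and cold and cAMP signalling raise its expression there.

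For Cebpa, Cebpb and Cebpg, the sequences at the highest promoter summit and at the highest summit or summits elsewhere in the locus are shown first, because the description of these loci turns on them. For Ddit3, the summit nearest the TSS and the bases before the TSS are shown. Sequences at the Cebpd, Cebpe and Cebpz loci and at the second Cebpb promoter summit are not printed. They are read from GRCm38 (mm10), 5′ to 3′ along the strand of the gene named, within 100 bp of the summit, and stop at the TSS where the window would run into transcribed bases. Capitals mark any match to the 15 short letter patterns listed further on.
Cebpa promoter summit, 89 bp upstream of the TSS, plus strand, chr7:35119104-35119292: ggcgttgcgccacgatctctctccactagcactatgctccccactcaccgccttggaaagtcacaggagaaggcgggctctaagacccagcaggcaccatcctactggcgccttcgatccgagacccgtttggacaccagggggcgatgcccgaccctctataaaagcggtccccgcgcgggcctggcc
Cebpa, 3537 bp downstream, plus strand, chr7:35122730-35122930: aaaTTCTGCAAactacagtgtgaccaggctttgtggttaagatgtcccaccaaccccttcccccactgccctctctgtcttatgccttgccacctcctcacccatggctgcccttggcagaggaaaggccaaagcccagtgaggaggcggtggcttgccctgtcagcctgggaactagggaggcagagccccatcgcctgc
Cebpa, 27321 bp downstream, plus strand, chr7:35146514-35146714: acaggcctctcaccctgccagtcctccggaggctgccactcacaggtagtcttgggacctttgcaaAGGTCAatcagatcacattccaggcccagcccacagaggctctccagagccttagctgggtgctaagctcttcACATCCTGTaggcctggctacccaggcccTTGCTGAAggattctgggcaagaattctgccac
Cebpb promoter summit, 740 bp upstream, plus strand, chr2:167688075-167688275: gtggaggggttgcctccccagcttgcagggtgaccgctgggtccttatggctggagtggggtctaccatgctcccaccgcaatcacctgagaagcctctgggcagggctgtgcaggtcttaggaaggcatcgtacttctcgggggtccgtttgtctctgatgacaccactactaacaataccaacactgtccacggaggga
Cebpb, 4066 bp downstream, plus strand, chr2:167692881-167693081: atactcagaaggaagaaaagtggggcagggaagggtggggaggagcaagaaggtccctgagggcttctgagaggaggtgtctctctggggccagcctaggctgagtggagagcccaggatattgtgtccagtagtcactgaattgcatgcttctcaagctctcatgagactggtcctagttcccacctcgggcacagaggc
Cebpb, 7349 bp downstream, plus strand, chr2:167696164-167696364: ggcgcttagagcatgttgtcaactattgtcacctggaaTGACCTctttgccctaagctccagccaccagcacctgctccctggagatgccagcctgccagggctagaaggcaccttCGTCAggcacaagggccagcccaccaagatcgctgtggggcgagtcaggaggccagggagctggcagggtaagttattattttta
Cebpg, directly upstream of the TSS, minus strand, chr7:35056567-35056655: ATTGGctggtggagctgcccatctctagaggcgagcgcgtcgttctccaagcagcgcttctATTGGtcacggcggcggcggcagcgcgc
Cebpg, 13558 bp downstream, minus strand, chr7:35042908-35043108: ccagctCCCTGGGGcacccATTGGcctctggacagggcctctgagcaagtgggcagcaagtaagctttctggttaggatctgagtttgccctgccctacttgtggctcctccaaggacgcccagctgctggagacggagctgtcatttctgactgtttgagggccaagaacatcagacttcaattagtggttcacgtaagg
Ddit3, summit 1428 bp upstream, plus strand, chr10:127289265-127289465: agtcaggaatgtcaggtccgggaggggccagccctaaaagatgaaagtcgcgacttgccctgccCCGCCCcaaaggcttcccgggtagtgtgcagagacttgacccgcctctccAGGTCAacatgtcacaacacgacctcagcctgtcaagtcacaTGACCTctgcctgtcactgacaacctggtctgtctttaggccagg
Ddit3, the 250 bases before its TSS, where no summit lay, plus strand, chr10:127290543-127290792: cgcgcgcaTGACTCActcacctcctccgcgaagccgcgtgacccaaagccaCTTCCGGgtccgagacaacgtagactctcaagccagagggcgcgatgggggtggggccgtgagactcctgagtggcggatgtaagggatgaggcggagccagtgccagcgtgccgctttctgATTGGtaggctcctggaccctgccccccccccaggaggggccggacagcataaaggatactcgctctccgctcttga

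Summits no more than 1 kb from a TSS of a gene are called its promoter summits. Of the 7 C/EBP genes, 5 (71.4%) had one, beside 45.2% of the 21000 genes with a curated RefSeq mRNA. Counting promoter summits of score 10 or more only, 4 of the 7 had one, beside 23.5% of all genes. All 7 had at least 1 summit in the locus, as did 72.5% of all genes. The 5 promoter scores were 41.0 at Cebpb, 39.6 at Cebpa, 17.4 at Cebpg, 15.4 at Cebpd and 6.02 at Cebpz, whereas Cebpe and Ddit3 had no promoter summit. The 5 thus included Cebpa, Cebpb and Cebpd, which act in fat cell differentiation, and also Cebpg and Cebpz. Which genes had one depended on the window, as Cebpb had none within 500 bp and Ddit3 had some within 5 kb. The median of the 5 scores was 17.4, against 10.7 over the 9485 genes with a promoter summit, whose quartiles were 5.55 and 20.9. Only Cebpa and Cebpb among the members were above that upper quartile. Since scores take few distinct values (37 among the 65 summits), ties between summits are common and small differences in score have no known error.

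**Figure D1:**
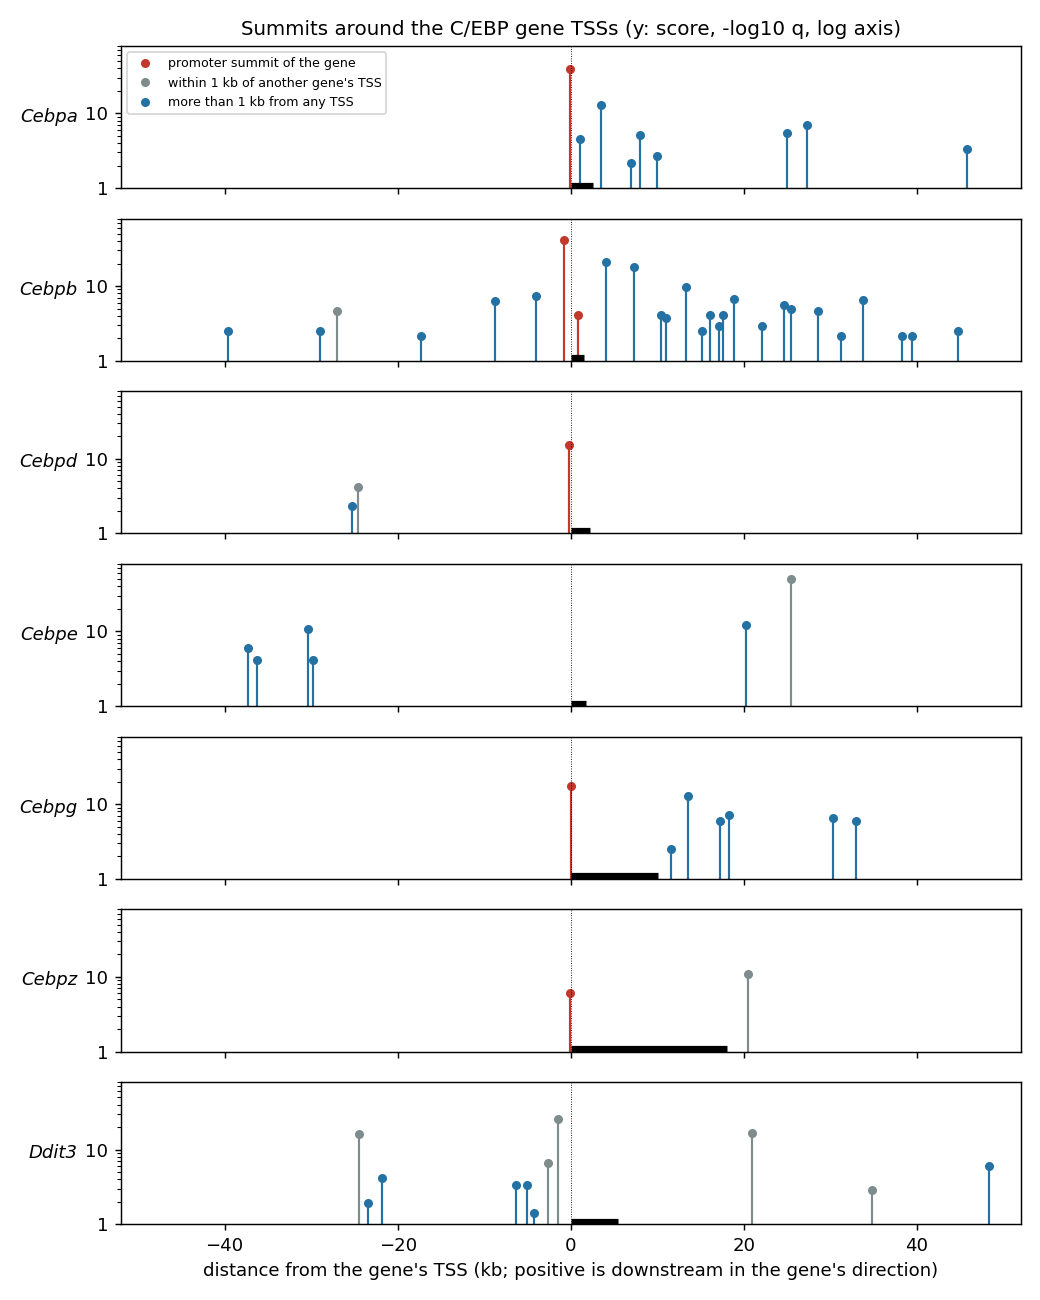
Summits around the TSS of each C/EBP gene, with distance from the TSS in kb on the x axis (positive is downstream in the direction of the gene) and score, the −log10 of the q-value, on a log y axis. Each stem is 1 summit, red for a promoter summit of the gene, grey for a summit within 1 kb of another gene's TSS and blue for the rest, and the black bar is the gene body. Cebpb has 20 summits downstream and 7 upstream, Cebpa and Cebpg have theirs on the downstream side apart from the promoter, and Cebpe has none within 20 kb.

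The locus counts differed widely. Cebpb had 27 summits, Ddit3 11, Cebpa 9, Cebpg 7, Cebpe 6, Cebpd 3 and Cebpz 2. This order rested on the lower scores and on the window. With scores of 10 or more only, Cebpb, Cebpe and Ddit3 had 3 each, Cebpa and Cebpg 2 each, and Cebpd and Cebpz 1 each. Giving each summit to the nearest TSS at any distance left 47 at Cebpb and 0 at Ddit3. Over all genes the median was 2, with quartiles of 0 and 5, so that Cebpd and Cebpz were near the middle of the genes and the others above the upper quartile. Of the 65 summits, 6 lay within 1 kb of a member's own TSS and 9 within 1 kb of the TSS of another gene. The other 50 (76.9%) were more than 1 kb from any TSS of a curated mRNA, here called distal, compared with 67.8% of all summits in the list. TSSs of noncoding genes were not counted, and the distal summit 10034 bp downstream of Cebpa lay within 1 kb of that of Gm35724. By annotation, 36 were between genes, 18 in introns, 6 in untranslated exons and 5 in coding exons. The nearest TSS was that of the C/EBP gene for 42 of the 65 and that of another gene for 23. The median score of the 65 was 5.0, with quartiles of 2.92 and 7.38 and a range of 1.42 to 51.0, and the median of the whole list was also 5.0. Scores of 10 or more were held by 15 of them (23.1%), close to the 23.5% of all summits. Among distal summits the median score was 4.16 both at the members and over the list, and 6 of 50 (12.0%) had a score of 10 or more, against 14.4% of all distal summits. As a set, the C/EBP loci thus had the list's median score and nearly its share of high scores, and what varied was the number and position of summits at each gene.

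**Figure D2:**
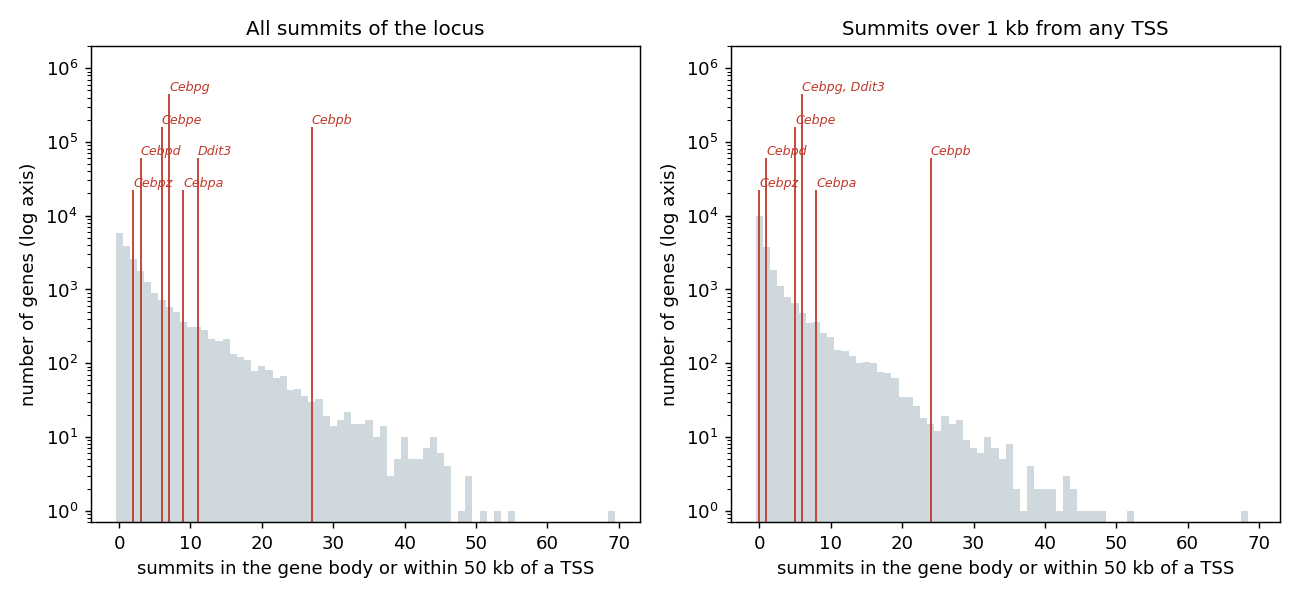
Number of genes (log y axis) by the number of summits per locus (gene body plus 50 kb on each side), for all summits on the left and for summits more than 1 kb from any TSS of a curated mRNA on the right. Red lines mark the 7 C/EBP genes: Cebpb, with 27 summits of which 24 are distal, lies in the upper tail, Cebpz has 2 and 0, and the other members lie between.

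Cebpb (chr2:167688915-167690432, plus strand, a single exon) encodes C/EBPβ, which acts early in fat cell differentiation and in brown fat cells. Its locus had more summits than that of 98.7% of genes, and 239 genes had a higher number. Its 24 distal summits were more than those of 99.3% of genes. The highest summit, of score 41.0, lay 740 bp upstream of the TSS, and its score was above the promoter score of 91.7% of genes with a promoter summit. A second promoter summit of score 4.16 lay 867 bp downstream, in the coding part of the exon, and is also near the start of the noncoding gene A530013C23Rik. Neither lay within 500 bp of the TSS, so that Cebpb has no promoter summit when the window is narrowed to 500 bp. The 300-bp promoter sequence around that TSS held 80.7% G and C, above 99.2% of the 32851 promoters in the RefSeq table, and 50 CpG dinucleotides against a median of 7. The 201-bp window at the upstream summit held 58.7%.

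Downstream of Cebpb the summits formed a long series. There were 20 between the TSS and 50 kb downstream, more than at 99.4% of genes, where the median was 1. Neighbouring summits of this series were 2541 bp apart at the median, with gaps of 516 to 5373 bp. The highest were those at 4066 bp with a score of 21.2 and at 7349 bp with 18.1, followed by 9.78 at 13366 bp. Only these first 2 reached a score of 10, and 7 of the 20 reached 5, so the series was dense rather than high. The window at 4066 bp was the highest-scoring summit outside the promoter and lay on a soft-masked repeat, 1 of only 2 among the 65 (3.08%), compared with 12.9% of all summits. On this side the next TSS of a curated mRNA was that of Ptpn1, a protein tyrosine phosphatase, 243412 bp from the Cebpb TSS, with 70 summits between them. Of 25978 intervals between neighbouring TSSs, 2 held more summits than this one, a count made after the interval had been seen. That count took intervals of any length and was not limited to those as long as this one, so it is not a rank of density. Upstream of Cebpb there were 7 summits. Apart from the promoter, the highest were 7.38 at 3962 bp and 6.35 at 8744 bp upstream, and the 4 farther ones, of score 2.15 to 4.61, were nearest to the TSS of Tmem189.

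Cebpa (chr7:35119293-35121928, plus strand, a single exon) encodes C/EBPα, the factor of terminal fat cell differentiation. It had 9 summits, more than 85.6% of genes, and 8 of them were distal. The promoter summit, 89 bp upstream of the TSS, had a score of 39.6, above 91.4% of genes with a promoter summit. All the others lay downstream. The first was in the coding part of the exon, 1050 bp past the TSS, and scored 4.61. The highest, 12.8, lay 3537 bp downstream, past the end of the gene, and 7.05 was reached at 27321 bp. The remaining 5 had scores of 2.15 to 5.39, and the last, at 45807 bp, was nearest to the TSS of Slc7a10, an amino acid transporter of fat cells.

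Cebpd (chr16:15887286-15889545, plus strand, a single exon) encodes C/EBPδ, the early partner of C/EBPβ. It had a promoter summit 171 bp upstream with a score of 15.4, above 64.1% of genes with a promoter summit. The locus held only 2 more, 4.16 at 24539 bp and 2.33 at 25312 bp upstream, and both lay in an intron of Mzt2 with the TSS of Mzt2 nearest. Downstream of Cebpd no summit was listed for 259218 bp, and the next TSS of a curated mRNA on that side, that of Spidr, is 259565 bp away. The gap between the summits on either side, 259389 bp, is not rare in the list, since 92.1% of the 32152 gaps between neighbouring summits were shorter and 2526 were longer. Cebpd and Cebpb therefore had the same kind of position, a single-exon gene with no mRNA start for a long stretch downstream, with 20 summits in the first 50 kb at Cebpb and none at Cebpd.

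Cebpg (chr7:35046422-35056566, minus strand, 2 exons) encodes C/EBPγ, which lacks a strong activation domain and forms dimers with other leucine zipper proteins, ATF4 among them. Its promoter summit lay 11 bp downstream of the TSS, in the untranslated first exon, with a score of 17.4, above 68.4% of genes with a promoter summit. The other 6 summits of the locus were downstream at distances of 11635 to 32986 bp, 5 of them in introns of the neighbouring gene Pepd, which encodes a dipeptidase. The highest was 12.8 at 13558 bp and the lowest 2.53 at 11635 bp. Those 6 placed Cebpg above 86.2% of genes by distal summits.

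Cebpg and Cebpa are neighbours on chromosome 7 and are transcribed away from each other, with 62727 bp between their TSSs. No summit lay in this interval farther than 1 kb from both TSSs, and all distal summits of both genes were on their downstream sides. Such an empty interval was common: of 427 intervals of 50 to 75 kb between divergent TSSs, 293 (68.6%) held no such summit. Where both genes had a promoter summit, as here, the count was 51 of 90 (56.7%).

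Ddit3 (chr10:127290793-127296288, plus strand, 4 exons) encodes CHOP, a member that is induced in the integrated stress response and blocks other C/EBP proteins as a dimer partner. Its locus had 11 summits, more than 88.8% of genes, but none was within 1 kb of its TSS and for none was the Ddit3 TSS the nearest. The closest, 1428 bp upstream, had a score of 25.4 and lay 347 bp from the TSS of Mbd6, which is 1775 bp from that of Ddit3. The next was 6.67 at 2658 bp upstream, inside Mbd6. Other high scores also lay at the starts of neighbours, 16.7 at 20966 bp downstream, 27 bp from the TSS of Mars1, and 16 at 24508 bp upstream, 23 bp from that of Dctn2. The other 7 summits had scores of 1.42 to 6.02 and lay in or at Mbd6, Dctn2, Arhgap9 and Gli1. With a promoter window of 5 kb on each side, Ddit3 gained 3 promoter summits, those at 1428, 2658 and 4185 bp upstream, and for all of them the TSS of Mbd6 was nearer. Its nearest summit was closer than that of 53.7% of all genes, whose median distance was 4945 bp. Of the 11515 genes with no promoter summit, 406 (3.53%) had 1 within 2 kb, as Ddit3 did.

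Cebpe (chr14:54710363-54712174, minus strand, 2 exons) encodes C/EBPε, which acts in the late stages of granulocyte formation. It had no promoter summit and none in the 20 kb on either side of its TSS. The nearest was 12.4 at 20293 bp downstream, in an untranslated exon of Gm29776, and 59.7% of genes had a nearer one. The locus nevertheless held 6 summits, including the highest score of the 65, 51.0 at 25457 bp downstream, which lay 214 bp from the TSS of Acin1. The other 4 were in an intron of Slc7a8, an amino acid transporter, 29747 to 37342 bp upstream, with scores of 4.16, 10.9, 4.16 and 6.02. The summits of this locus were thus all in or at the start of a neighbouring gene.

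Cebpz (chr17:78919003-78937070, minus strand, 16 exons) shares the family's name but not its leucine zipper, and its protein is known from ribosome assembly. Its promoter summit lay 17 bp upstream of the TSS with a score of 6.02, above 25.9% of genes with a promoter summit and the lowest of the 5. It was also 48 bp from the TSS of Ndufaf7, an assembly factor of respiratory complex I, because both genes start 65 bp apart, and the list cannot say which start it belongs to. The only other summit, 10.9 at 20496 bp downstream, lay 75 bp from the TSS of Cebpzos. Cebpz was the only member with 0 distal summits.

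Among other leucine zipper factor genes, which include the dimer partners of the family, 29 of 35 (82.9%) had a promoter summit, beside 45.2% of all genes, with a median score of 20.4 that lay above that of the C/EBP genes and above the 10.7 of all genes. Atf7 at 72.5, Jun at 67.4 and Atf4 at 54.7 exceeded every C/EBP promoter, while Batf and Maf had no promoter summit. Of the genes listed as regulators of C/EBP genes in fat cell differentiation, 18 of 22 had one (81.8%, against the same 45.2%), with a median of 13.3. A promoter summit of score 10 or more was found at 10 of 22, where 23.5% of all genes had one. Stat3 was highest there at 84.1, followed by Crtc2 at 32.5, and Crtc3, Stat5b and Zfp423 had none. Of 15 known C/EBP target genes in fat, 13 (86.7%) had a promoter summit, again beside 45.2% of all genes, at a median of 23.1, and their loci held a median of 15 summits against 2 over all genes. Pck1, which encodes a gluconeogenic enzyme, had 62.5 and Slc2a4, the insulin-regulated glucose transporter, 46.4, whereas Lep and Retn, the genes of the hormones leptin and resistin, had none.

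A list of stress response genes joined the integrated stress response with other endoplasmic reticulum stress genes, such as Ern1, Atf6, Xbp1 and Dnajb9. In this list, 18 of 18 genes had a promoter summit, with a median score of 18.4, and 11 of 18 had one of score 10 or more. Over all genes these shares were 45.2% and 23.5%. Dnajb9 was highest at 66.4, and Atf4, whose protein activates Ddit3 under stress, had 54.7. Ddit3, not itself in this list, was thus without a promoter summit where all 18 listed genes had one. In the granulocyte list, which belongs with Cebpe, 2 of 16 (12.5%) had a promoter summit, Camp at 4.61 and Lcn2 at 4.16, and none reached a score of 10. Elane, Mpo and Ltf, which encode granule proteins, had none. Of the brown adipocyte markers, 11 of 12 had a promoter summit, beside 45.2% of all genes, with Cidea highest at 61.5 and only Zic1 without. Macrophage markers had 1 of 6, endothelial markers 2 of 6, and muscle and neuron markers 0 of 6 each. At a score of 10 or more, 6 of 12 brown adipocyte markers and 0 of 6 in each of the other marker lists had one, beside 23.5% of all genes, and with 6 genes a list a count of 0 is little below that share. Since the list may hold an excess of 1 genotype over the other, these counts do not check which cell types the tissue held. Summits do not measure transcription, and in a whole tissue fewer cells of a type cannot be told apart from less open chromatin per cell. Some genes stand in more than 1 gene list, so the shares of the lists are not separate counts. Atf4, Atf5, Atf6 and Xbp1 were both leucine zipper factors and stress response genes. Ucp1, Ppargc1a, Pparg and Adipoq were both brown adipocyte markers and C/EBP targets. Pparg, Prdm16 and Ebf2 were also listed as regulators, as was Creb1, a leucine zipper factor.

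**Figure D3:**
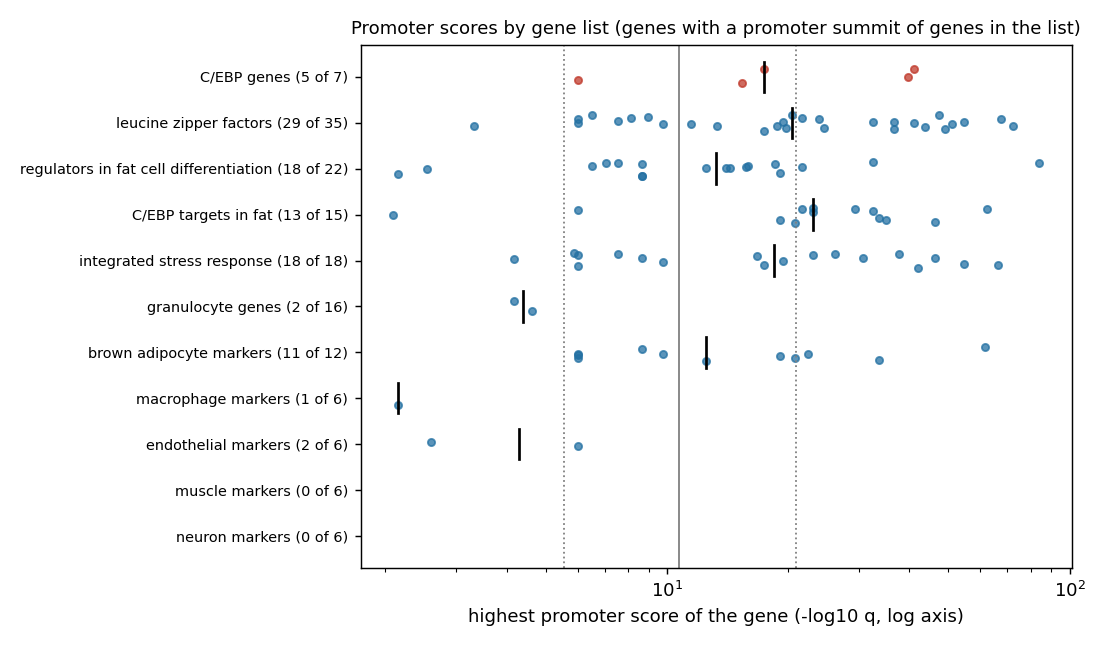
Highest promoter score of each gene (log x axis, −log10 of the q-value) for the C/EBP genes in red and the genes of each list in blue, with the number of genes that have a promoter summit in parentheses. Black bars are medians and the grey lines are the median (10.7, solid) and quartiles (5.55 and 20.9, dotted) of all genes with a promoter summit. The C/EBP genes range from 6.02 to 41.0, and all 18 stress response genes have a score while 14 of 16 granulocyte genes have none.

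The base composition of the 65 windows of 201 bp followed their position. The 15 near a TSS (at most 1 kb) had a median of 61.7% G and C and 18 CpG dinucleotides, beside 62.2% and 14 for all summits of that kind. The 50 distal ones had a median of 55.0% and 2.5 CpG, beside 54.2% and 3. The promoter summit of Cebpg had the highest share, 69.7%. Those of Cebpa, Cebpz and Cebpd held 64.2%, 61.7% and 61.2%.

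**Figure D4:**
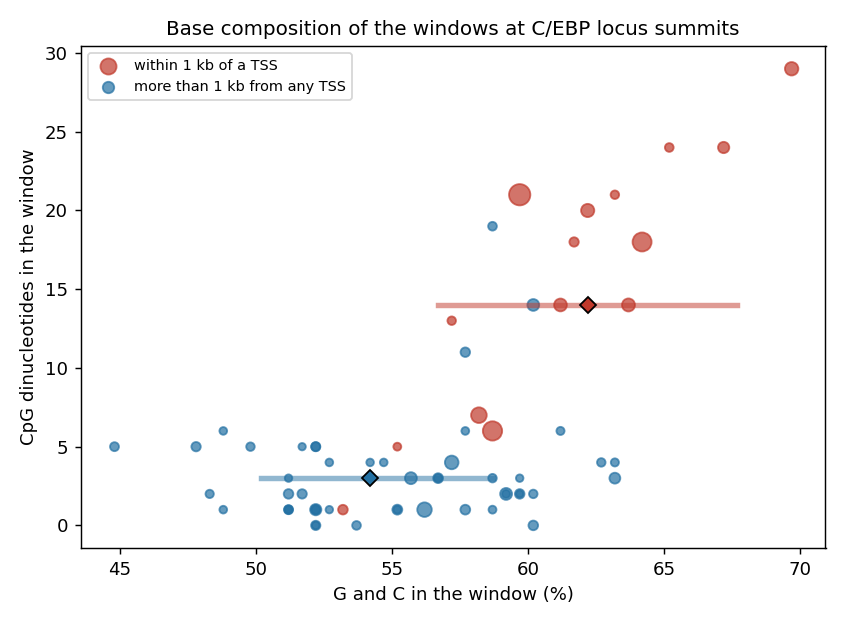
G and C content (x axis, percent) and number of CpG dinucleotides (y axis) of the 201-bp windows at the 65 summits, red within 1 kb of a TSS and blue farther away, with point area rising with score. Diamonds and bars give the median and quartiles of G and C of all summits of each kind at their median CpG count, and the members spread around both.

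The letter patterns searched on both strands of each window were the C/EBP site TTGCNNAA and its full palindrome TTGCGCAA, the ATF4 composite site TGATGCAA, the cAMP response element (CRE) TGACGTCA and its short form TGACG, AP-1 TGANTCA, STAT TTCNNNGAA, glucocorticoid receptor ACANNNTGT, EBF CCCNNGGG, the nuclear receptor short site AGGTCA, E-box CACGTG, SP/KLF GGGCGG, NF-Y CCAAT, ETS CCGGAAG and the endoplasmic reticulum stress element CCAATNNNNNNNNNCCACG. The short forms lie inside the longer ones where both match. A match is a description of letters and not of binding.

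The C/EBP pattern TTGCNNAA was found at 6 of the 65 summits (9.23%), beside 10.9% of all summits. These were at 3537 and 27321 bp downstream of Cebpa, 28591 bp downstream of Cebpb, 32986 bp downstream of Cebpg, and 2658 and 23434 bp upstream of Ddit3. None of the 6 promoter windows of the members held it, and the full palindrome was found at 0 of the 65 and 0.146% of all. The ATF4 composite, the full CRE and the endoplasmic reticulum stress element were also found at 0 of the 65, and at 0.612%, 1.03% and 0.0342% of all summits.

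AGGTCA, the core site of nuclear receptors such as PPARγ and the thyroid hormone receptor, was the most frequent pattern. It lay at 16 summits (24.6%), beside 15.2% of all, and at 14 of the 50 distal ones (28.0%), beside 17.7%. The 15 patterns were compared without a test. The alternative settings used for the C/EBP pattern were not run for AGGTCA, so whether its larger share depends on them was not tested. By gene, AGGTCA lay at 7 of 27 summits of Cebpb, 3 of 9 of Cebpa, 2 of 6 of Cebpe, 2 of 7 of Cebpg and 2 of 11 of Ddit3, and at none at Cebpd and Cebpz. At 7349 bp downstream of Cebpb it stands in the printed window with the short CRE, and at 27321 bp downstream of Cebpa with a C/EBP and a glucocorticoid receptor pattern. The Ddit3 window at 1428 bp upstream holds it in both orientations.

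The EBF pattern was found at 10 summits (15.4%), near the 15.7% of all, with 6 of the 10 in the Cebpb locus, which held 27 of the 65 summits searched. NF-Y was found at 13 (20% beside 24.9%), with 8 in the Cebpb locus, and the short CRE at 7 (10.8% beside 14.8%), with 4 there. AP-1 was at 4 (6.15% beside 6.40%), STAT at 1 (1.54% beside 4.10%), the glucocorticoid receptor pattern at 3 (4.62% beside 4.98%), the E-box at 4 (6.15% beside 4.68%), SP/KLF at 9 (13.8% beside 20.6%) and ETS at 1 (1.54% beside 5.38%). Apart from AGGTCA and the E-box, the shares at the C/EBP loci were thus close to or below those of the list.

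RefSeq's table of promoter sequences on this build, 250 bp before to 50 bp after the TSS, held Cebpa, Cebpb, Cebpg and Ddit3, and Cebpd, Cebpe and Cebpz were not matched. None of the 4 held the exact letters TTGCNNAA, which 10.8% of the 32851 promoters did. Near matches, such as ttgcgcca in the printed Cebpa promoter window, were not counted. Cebpb held the short CRE at 180, 53 and 7 bp upstream of the TSS, a pattern found in 20.8% of promoters, and SP/KLF at 5 positions, a pattern in 35.7%. Cebpg held CCAAT at 89 and 28 bp upstream, as printed on its own strand as ATTGG, where 37.4% of promoters held at least 1. Ddit3, with no promoter summit, held AP-1 at 242 bp, ETS at 199 bp and CCAAT at 77 bp upstream and AGGTCA across the TSS, in a promoter of 60.7% G and C, and AP-1 and ETS were found in 7.81% and 8.86% of all promoters. Cebpa, with a high promoter score, had an exact match to none of the 15 patterns.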

How the data were processed

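The authors made ATAC-seq libraries from BAT of 2 WT and 2 Dot1L-BKO mice. Per the submitters' processing notes, CASAVA, bcl2fastq 2.2, cutadapt 1.2.1, BWA and MACS2 2.1.1 were used with mm10. In MACS2, peaks had to pass a q-value of 0.05 and a fold of 2.0. The authors deposited 1 list of summits with a score, read here as the −log10 of the q-value because the lowest score lies just above that of the cutoff. The list is named for WT against Dot1L-BKO libraries, and which served as treatment or control is not stated in the sources used here. Neither is the treatment of Tn5 offsets, duplicates and multi-mapped or mitochondrial reads, which could move summits and scores. The authors also describe a union of regions from the peaks of each sample, and whether the deposited list is that union is not stated. The list gives neither the depth nor the peaks of each library.

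Summits were placed relative to TSSs of curated RefSeq mRNAs (GRCm38) on chromosomes 1 to 19, X and Y, and letter patterns were searched within 100 bp. No test was run, because the list has no values per library. Placement was tested on simulated summits. The members and lists were chosen with earlier results of these data known. All 7 members were named with every promoter summit and the highest summit elsewhere, the genes whose TSS was nearest to those, and up to 5 genes per list, highest scores first and then those without a promoter summit. Other summits and neighbouring genes were named after their values were seen. Alternatives changed the score minimum, merged summits within 500 bp, and changed the windows and transcripts. Python 3.11.15, numpy 2.4.6, pandas 2.3.3 and matplotlib 3.10.9 were used.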

Additional observations from a re-analysis of the deposited data

How the results depend on the processing

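The number of summits at the C/EBP loci depended on the score minimum and the window. It was 65 as reported, 33 with a score of at least 5, 15 with a score of at least 10, 33 with a window of 20 kb and 108 with one of 100 kb. Merging summits within 500 bp or adding predicted mRNAs left 65, and giving each summit to its nearest TSS at any distance gave 66. The 50 distal summits became 22 and 6 at scores of at least 5 and 10, alternatives chosen after seeing the data. The number of members with a promoter summit was 4 to 6 throughout, beside 23.5% to 50% of all genes, with Cebpz lost at a score of at least 10 (4 members beside 23.5%), Cebpb lost at 500 bp (4 beside 41.4%) and Ddit3 gained at 5 kb (6 beside 50%). At a score of at least 10, the stress response list fell from 18 to 11 and the regulators from 18 to 10, an alternative chosen after seeing the data. The C/EBP pattern was at 6 of 65 summits (9.23% beside 10.9% of all), at 4 of 65 within 50 bp (6.15% beside 5.77%), at 4 of 33 with a score of at least 5 (12.1% beside 11.9%), and at 0 of 65 as the full palindrome (0.146% of all), so that whether the share was below or above that of the list depended on the setting. No paired analysis was possible because every peak has a single score for all 4 libraries, and for this reason no replicate could be left out. Depth and the error of scores are unknown, and whether the order of 2 near scores would hold in other libraries was not tested.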
